A study of Mus musculus with 8 samples.

Results

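Bone marrow mesenchymal stem cells kept for 3 days in an extract of the PCL-E scaffold were compared, gene by gene, with cells kept in an extract of the PCL-O scaffold. The members are the rat Ensembl genes with at least 20 CPM (counts scaled to the library total) in either of these 2 libraries. They number 6625 of the 26873 features in the deposited table. The table holds 22050 rat Ensembl genes in all, of which 15425 lay under 20 CPM in both libraries and 6343 had no count in either. All 6625 members passed the low-count filter used for the fit over all libraries. Tgs1 (20.02 CPM in PCL-O and 19.7 in PCL-E) sat just inside the minimum, and Zfp64 (17.9 and 19.9998) and Zc3hc1 (18.2 and 19.9998) just outside it.

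The series has 8 messenger RNA libraries: 4 scaffold extracts were sampled on day 3 and on day 7, with 1 library each. All came from cells labelled as a wild-type (WT) BMSC line under osteogenic differentiation, and all received complete DMEM with fetal bovine serum in which polycaprolactone (PCL) scaffolds had been soaked. Blank, S7, E7 and S7+E7 groups make up the design, and the title calls S7 and E7 peptides. The labels PCL-S, PCL-E and PCL-SE were read as S7, E7 and both, and PCL-O as the blank by elimination. The extraction protocol speaks of RNA samples with n = 3, while each arm and day has 1 column of counts, and the labels do not say whether RNA was pooled. How much peptide was used, and its sequence, are not stated in the labels either. The labels give Mus musculus, whereas the table's gene identifiers are those of rat, and gene symbols here follow the identifiers.

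Mesenchymal stem cells of the marrow are stromal progenitors that can form bone, cartilage and fat cells. Osteogenic differentiation proceeds through the transcription factors Runx2 and Sp7 (osterix) to cells that lay down a type I collagen matrix and mineralise it. Polycaprolactone is a slowly degrading polyester used for bone scaffolds, and an extract carries whatever the scaffold releases into the medium.

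Totals were 34513496 counts in PCL-O and 34700380 in PCL-E on day 3, within the range of the 8 libraries (32950326 to 41754124), and 3 counts were worth 0.0869 and 0.0865 CPM. Stromal markers were present: 9 of 11 reached 20 CPM, with summed levels of 5885 CPM in PCL-O and 5966 in PCL-E. The integrin gene Itgb1 alone made up 3692 and 3632 CPM of these sums. Nt5e (4.23 and 6.48 CPM) and Vcam1 (0.174 and 0.144) did not reach 20 CPM, and Cd248 did so in PCL-O only. None of 13 hematopoietic, 7 matched endothelial, 6 neural or 4 fat markers reached 20 CPM. Ptprc, which marks blood cells, and Adipoq, which marks fat cells, had no count in either. Of the longer endothelial and neural lists 1 gene each reached 20 CPM, Flt1, a VEGF receptor gene (19.6 and 23.2 CPM), and the adhesion molecule gene Ncam1 (403 and 365 CPM). Of 5 osteoblast markers 0 reached 20 CPM (summed 25.1 in PCL-O and 31.4 in PCL-E): Runx2 stood at 14.9 and 18.4 CPM and the mineralisation enzyme Alpl at 9.39 and 12.6. Sp7 (0.348 CPM) and the osteocalcin gene Bglap (0.116) were near the floor in PCL-O and had no count in PCL-E. Mitochondrial messenger RNAs took 3.29% of the counts in PCL-O and 3.38% in PCL-E.

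On day 3 the E7 extract went with few and small differences in these cells. Among genes with a single feature by Swiss-Prot name, Epas1 (a hypoxia-inducible factor subunit) and Crispld2 (a secreted, glucocorticoid-responsive protein) were the highest in PCL-E. Fast and embryonic muscle myosins, the cartilage genes Col2a1, Acan and Col9a2, the growth factor gene Igf1 and its binding protein gene Igfbp2 were among the lowest. Genes of sterol synthesis and of the cell cycle stood slightly higher in PCL-E nearly throughout their lists. Each side is 1 library, so the values have no replicate check and no p-value. Each value is a log2 ratio of CPM scaled by TMM, after 2 was added to both sides, with a 95% interval that covers counting error only. In bulk RNA, fewer cells of a type and less RNA per cell cannot be told apart.

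The log2 ratio of PCL-E to PCL-O had a median of 0.00 and an SD of 0.17 over the 6625 genes, and 95% of genes lay between -0.31 and 0.26. Genes above 0 were 3386 (51.1%) and genes below it 3239 (48.9%). At 2-fold or more 21 genes were apart (0.317%), 6 higher (0.0906%) and 15 lower (0.226%) in PCL-E. At 1.5-fold or more there were 64 (0.966%), 26 higher (0.392%) and 38 lower (0.574%). Counting error was small beside these ratios: the median half-width of an interval was 0.09, the largest was 0.20, and 42.1% of intervals lay wholly on 1 side of 0. Such an interval speaks of these 2 libraries and not of the extracts.

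**Figure D1:**
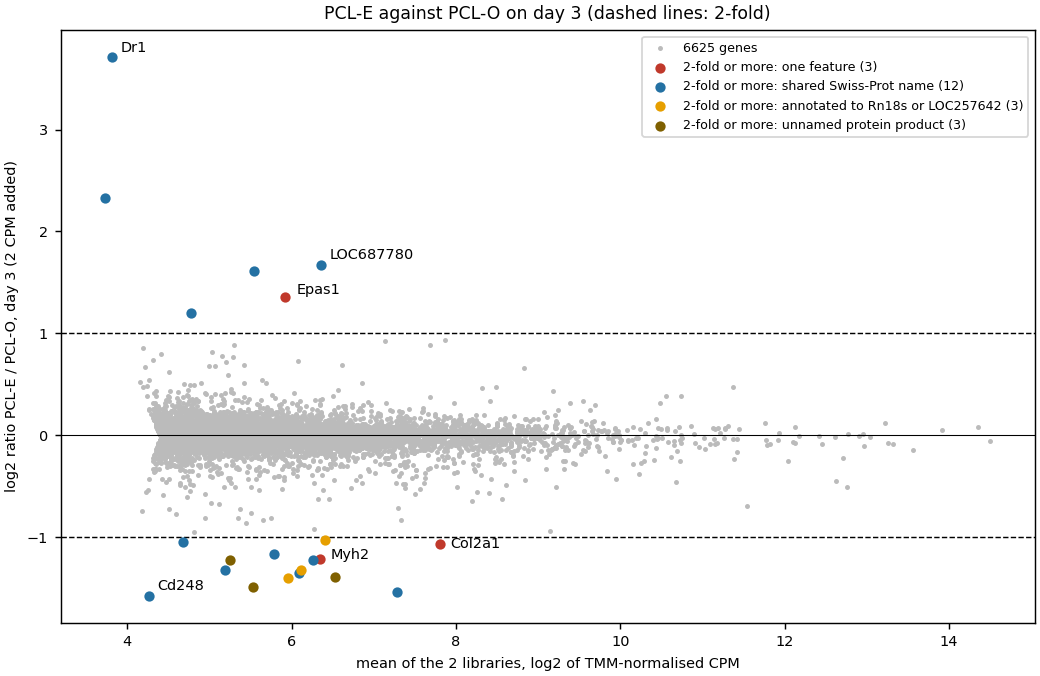
Each point is 1 of 6625 genes, with the log2 ratio of PCL-E to PCL-O on day 3 against the mean log2 of normalised CPM in the 2 libraries. Nearly all genes lie close to 0, and of the 21 past the dashed 2-fold lines only the 3 red points are genes with a single feature to their name that are not ribosomal RNA or unnamed loci.

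Most of the ratios past 2-fold belonged to features that share their Swiss-Prot gene name with another feature of the table. How many of all members share a name is not given here, so whether the extreme genes do so more often was not tested. Of the 21 genes past 2-fold 12 shared a name, 5 higher and 7 lower. When the CPM of same-named features were added up 0 of the 12 remained past 2-fold. For AABR07025010.1 and AABR07046778.1 this was bound to happen, because far larger same-named features made up most of the sum. For Fzd8 a same-named feature was larger (109 CPM in PCL-O and 127 in PCL-E), so that sum could not have halved either. After summing there were 6384 entries, with members that have no Swiss-Prot name kept as they were. Among the entries 1 was 2-fold or more higher (0.0157%) and 8 lower (0.125%). The lower ones were Myh2, Col2a1 and loci with no name to sum. Where same-named features are near-identical, the authors' counting could assign reads to 1 copy or the other, so the values of single copies are uncertain. The sequences of the features were not compared here, so copy below means only a feature with the same Swiss-Prot name. The summing was chosen after the data were seen.

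The copies of Dr1, which encodes a repressor of RNA polymerase II transcription, show the pattern most plainly. Dr1 itself stood at 0.261 CPM in PCL-O and 26.5 in PCL-E, a log2 ratio of 3.71, the highest of all members. Its copy LOC100910207 went the other way, from 64.7 to 36.7 CPM. The sum of both was level, at 64.9 and 63.1 CPM (log2 ratio -0.06).

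Cd248, the endosialin gene of stromal cells, had the lowest ratio of all members, at 27.7 CPM in PCL-O and 8.21 in PCL-E (-1.57). Its copies LOC108348067 (14.7 and 37.0 CPM) and LOC100911932 (6.72 and 10.1) were higher in PCL-E, and the sum of the 3 was 49.2 and 55.3 CPM (0.14). The single feature and the summed gene thus had opposite signs.

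Of the Rps27a features, which encode a ubiquitin fused to a ribosomal protein, ENSRNOG00000034246 stood at 218 CPM in PCL-O and 75.2 in PCL-E (-1.54). The other, ENSRNOG00000004426, stood at 149.5 and 292 CPM, and the sum at 368 and 367 (-0.03). Fau, a ubiquitin-like fusion with another ribosomal protein, fell into 3 features: LOC687780 was higher in PCL-E (35.5 and 119.5 CPM), while Fau (72.1 and 31.6) and LOC100360647 (49.7 and 19.1) were lower. Their sum was 157 and 170 CPM (0.09). In both cases features differed in opposite directions while their sum differed little, and the cause was not tested.

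Selenow, a small selenoprotein, showed the same: its copy LOC103689961 stood at 32.8 CPM in PCL-O and 15.2 in PCL-E, Selenow at 23.7 and 39.8, and the sum at 56.5 and 55.0 (-0.06). AABR07025010.1, 1 of 7 features named for the glycolytic enzyme gene Gapdh, stood at 20.5 and 67.8 CPM. All 7 summed to 1509 and 1562 CPM (0.02), a total that this small feature could not move by 2-fold. AABR07046778.1 shares its name with a mitochondrial gene and stood at 2.87 and 22.3 CPM. The pair summed to 478 and 483 CPM (-0.01), again mostly from the larger feature.

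For the other two names a part of the difference was left in the sum. Fzd8, a Wnt receptor, stood at 92.2 CPM in PCL-O and 35.6 in PCL-E (-1.35), but its copy LOC100909849 stood at 109 and 127, and the sum was 201 and 163 CPM (-0.33). Pak2, a kinase of the actin cytoskeleton, stood at 101 and 42.7 CPM (-1.23) with a level copy (41.7 and 41.0), and its sum of 142.5 and 83.7 CPM gave -0.78, the largest summed difference among the 12. At 1.5-fold, 27 of the 64 genes shared a name, and 1 of the 27, Pak2, was still past 1.5-fold in the sum. The share of all members that do so is not given here, so name sharing cannot be read as particular to these genes.

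**Figure D2:**
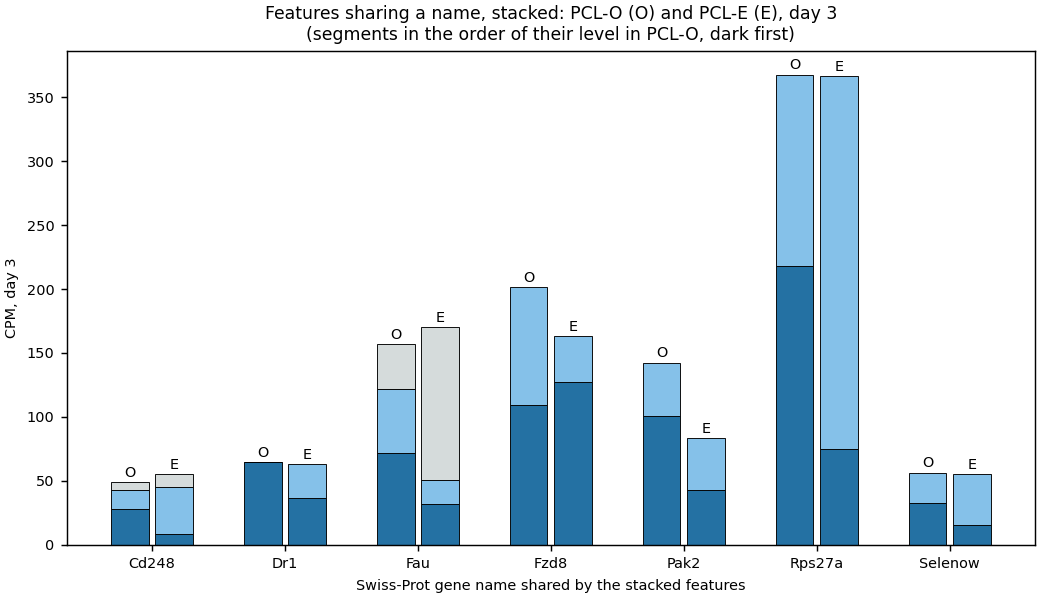
Stacked bars give the CPM of same-named features on day 3 in PCL-O (O) and PCL-E (E), 1 library each, starting at 0, for 7 of the 9 names with a member past 2-fold. For Cd248, Dr1, Fau, Rps27a and Selenow the segments change while the bar heights differ little, whereas the Pak2 bars stand at 142.5 and 83.7 CPM.

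A second set past 2-fold was 6 loci, all lower in PCL-E, of which 3 are annotated to 18S ribosomal RNA (Rn18s) or LOC257642 and 3 only as an unnamed protein product. Ribosomal RNA is the bulk of a cell's RNA and is largely removed from messenger RNA libraries. Together the 6 took 0.0526% of the counts in PCL-O on day 3, against 0.0212% in PCL-E. The S7 libraries of that day were at 0.0237% (PCL-S) and 0.0214% (PCL-SE). A new gene annotated to Rn18s, which is no member, took 0.0944% in PCL-O and 0.0485% in PCL-E. PCL-O was the highest of the 4 day 3 libraries for each of the 6 loci. On day 7 their summed share was 0.0109% in PCL-O and 0.0186% in PCL-E. It was higher with S7 that day, at 0.131% in PCL-S and 0.0768% in PCL-SE, both above PCL-O on day 3. The part of this in other ratios was not tested.

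That left 3 genes past 2-fold with 1 feature to their name, Epas1, Myh2 and Col2a1, and 31 past 1.5-fold, 10 higher and 21 lower in PCL-E. The name meant is the Swiss-Prot name, which can differ from the symbol, and for Myh2 it is MYH1. Features alike in sequence under other names were not looked for. The next paragraphs give these 31 by role. Those outside the naming rule were chosen after their values were seen.

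Epas1 (ENSRNOG00000021318) encodes HIF-2 alpha, the oxygen-regulated partner of a transcription factor pair, and is also induced by glucocorticoids. It stood at 31.1 CPM in PCL-O and 83.9 in PCL-E on day 3 (1073 and 2910 counts), a log2 ratio of 1.35 (95% interval 1.26 to 1.45). In the libraries with S7 it was far higher (469 CPM in PCL-S, 466 CPM in PCL-SE). On day 7 the order of the first pair was turned, with 27.9 CPM in PCL-O and 13.5 in PCL-E.

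Crispld2 (ENSRNOG00000016752) followed, at 89.9 CPM in PCL-O and 175 in PCL-E (0.92, interval 0.86 to 0.99), and 736 (PCL-S) and 729 CPM (PCL-SE) with S7. Of the list of glucocorticoid-induced genes, 10 of 20 were members. Their median log2 ratio was 0.09, and 8 of 10 were above 0, where 51.1% of all members were. Below the leading pair came Errfi1, an inhibitor of the EGF receptor (26.1 CPM in PCL-O and 35.2 in PCL-E, 0.38). The period gene Per1 (51.7 and 40.7 CPM, -0.36) and the phosphatase gene Dusp1 (251 and 218 CPM, -0.23) were lower, so the list had no single direction.

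The list of hypoxia targets had a median of 0.05 over 17 members, 13 of them above 0, where 51.1% of all members were. Epas1 is on this list too, and next to it stood Adm, the vasodilator peptide adrenomedullin (14.4 CPM in PCL-O and 21.3 in PCL-E, 0.48). The hypoxia marker Car9, a carbonic anhydrase (462 and 422 CPM, -0.16), and Pfkfb3, an activator of glycolysis (70.0 and 55.8 CPM, -0.34), were lower.

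Among matrix genes, 2 laminin chains were higher in PCL-E. Lama2, the alpha chain of the muscle and nerve laminin, stood at 24.0 CPM in PCL-O and 43.2 in PCL-E (0.78), and Lama5, an alpha chain of many epithelial and vessel basement membranes, at 25.6 and 44.2 CPM (0.72). Both were higher still with S7 (201 and 122 CPM in PCL-S). The rest of the laminin and basement membrane list did not follow. The list median over 12 members was -0.11 and 8 of 12 were below 0, where 48.9% of all members were. Fras1, a basement membrane adhesion protein (211 and 161 CPM, -0.42), and hemicentin Hmcn1 (188 and 143 CPM, -0.42) were the lowest.

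Type IV collagen, the network of basement membranes, was higher. Col4a1 stood at 2067 CPM in PCL-O and 2929 in PCL-E (0.48, and 0.37 summed with its same-named feature), and Col4a2 at 1220 and 1622 CPM (0.39). The list of collagens other than fibrillar ones had a median of 0.17 over 12 members. Of these 7 were above 0 and 5 below, where 51.1% of all members were above 0, so the list had no single direction. Type I collagen differed little, with Col1a1 at 18908 CPM in PCL-O and 20401 in PCL-E (0.08), and the 9 fibrillar collagens had a median of 0.02. In the elastic fibre list (11 members, median -0.04) elastin itself was higher (Eln, 1190 and 1508 CPM, 0.32). So was the scaffold protein gene Fbln2 (250 and 352 CPM, 0.47), while the fibrillin gene Fbn2 was lower (370.0 and 279 CPM, -0.43). Prelp, a leucine-rich proteoglycan that anchors basement membranes, stood at 22.5 and 37.9 CPM (0.68).

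Cartilage genes stood out at the other end. Col2a1 (ENSRNOG00000058560), the type II collagen of cartilage, stood at 283 CPM in PCL-O and 137 in PCL-E (-1.07, interval -1.12 to -1.02). Acan, the large aggregating proteoglycan aggrecan, stood at 193 and 109.6 CPM (-0.83), and Col9a2, a collagen that decorates type II fibrils, at 183 and 113 CPM (-0.71). With S7 the levels were 27.3 CPM for Col2a1, 123 for Acan and 10.9 for Col9a2 in PCL-S. Of 16 cartilage genes 5 were members, all below 0 (where 48.9% of all members were), with a median of -0.71. The other members, the cartilage transcription factor gene Sox9 (27.2 and 26.4 CPM, -0.06) and the fibril collagen gene Col11a1 (3326 and 3269 CPM, -0.05), were close to level. Over the marker set Sox9, Acan, Comp and Col2a1 the summed level was 509 CPM in PCL-O, the highest of the 8 libraries, and 280 in PCL-E, where the lowest library had 85.9. The part of cartilage-like cells in other results was not tested.

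The striated muscle list held 4 members of 22, all below 0 (where 48.9% of all members were), with a median of -0.69. Myh2 (ENSRNOG00000049695), a fast skeletal muscle myosin, stood at 107 CPM in PCL-O and 45.8 in PCL-E (-1.22, interval -1.30 to -1.13), and the embryonic myosin gene Myh3 at 37.1 and 20.7 CPM (-0.81). The troponin gene Tnnc1 (34.9 and 23.2 CPM, -0.57) and the skeletal actin gene Acta1 (158 and 125 CPM, -0.35) were lower as well. The muscle determination genes Myod1 and Myog were under 1 CPM in both libraries, and the creatine kinase gene Ckm had no count in PCL-O. Summed over Myod1, Myog, Myh2, Ckm and Acta1 the level was 265 CPM in PCL-O, again the highest of the 8 libraries, and 172 in PCL-E, where the lowest library had 2.61. Smooth muscle contractile genes did not share this direction: their median over 16 members was 0.04.

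Genes of growth factors, their receptors and a binding protein gave further low values. Igf1, the insulin-like growth factor, stood at 48.7 CPM in PCL-O and 29.3 in PCL-E (-0.72), and Igfbp2, which binds it, at 3447 and 2164 CPM (-0.70). Other binding proteins were higher, Igfbp7 at 282 and 362 CPM (0.33) and Igfbp4 at 164 and 202 (0.27), and the insulin-like growth factor list of 9 members had a median of -0.04. Over the list of PDGF, FGF and other growth factors 14 of 18 members were below 0 (median -0.17, where 48.9% of all members were below 0). The EGF receptor ligand gene Hbegf led it downwards (339 and 235 CPM, -0.55), with the FGF receptor gene Fgfr1 next (61.0 and 46.7 CPM, -0.40).

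BMP signalling drives osteoblast and cartilage formation. In its list 16 of 20 members were below 0 (median -0.14), where 48.9% of all members were. The receptor gene Bmpr1b stood at 21.6 CPM in PCL-O and 12.4 in PCL-E (-0.74), and the secreted antagonist noggin (Nog) at 27.6 and 19.5 CPM (-0.49). The ligand gene Bmp6 went the other way (34.7 and 46.5 CPM, 0.38). Ligands, receptors and targets of TGF-beta had 13 of 17 members below 0, with a median of -0.09 and a range of -0.28 to 0.22. In the Wnt list (14 members, median -0.02) the ligand gene Wnt5a was higher (29.8 and 42.4 CPM, 0.46), and the pathway inhibitor gene Nkd2 was lower (183 and 130 CPM, -0.52).

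Adamts8, a secreted metalloproteinase, had the second largest gap in CPM among the 31 genes, after Igfbp2, with 696 in PCL-O and 369 in PCL-E (-0.94, interval -0.97 to -0.91). It stood at 15.1 CPM in PCL-S. Cyp26b1, which degrades retinoic acid, stood at 53.8 and 31.5 CPM (-0.76). The matricellular genes Postn (periostin, 7639 and 5456 CPM, -0.51) and Tnc (tenascin C, 1773 and 1318 CPM, -0.45) were lower by less than 1.5-fold.

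The remaining genes of the 31 have varied roles. Higher in PCL-E were the mesothelin gene Msln (11.6 CPM in PCL-O and 22.9 in PCL-E), the prostaglandin reductase gene Ptgr1 (21.7 and 40.3), the calcium channel gene Itpr3 (14.0 and 26.1), the guanylate cyclase subunit gene Gucy1a1 (13.4 and 24.1) and the lysophosphatidic acid receptor gene Lpar1 (13.0 and 22.2). Their log2 ratios ran from 0.67 to 0.86. Lower were Lpin2, an enzyme of lipid synthesis (35.2 and 17.7 CPM, -0.94), the lipoprotein lipase gene Lpl (28.9 and 16.5 CPM, -0.77) and the myelin protein gene Pmp22 (430.1 and 284 CPM, -0.62). C1qtnf3, Nnat, Trpc6, Slitrk5, Gldn, Lrp2, Egfl6 and Egr2 were also lower, with log2 ratios from -0.92 to -0.60.

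The comparisons of PCL-E and of PCL-S with PCL-O share the PCL-O library, so the S7 levels beside these genes are a description of single libraries. Between PCL-S and PCL-O 311 members were 2-fold or more apart (4.69%), against 21 (0.317%) between PCL-E and PCL-O.

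**Figure D3:**
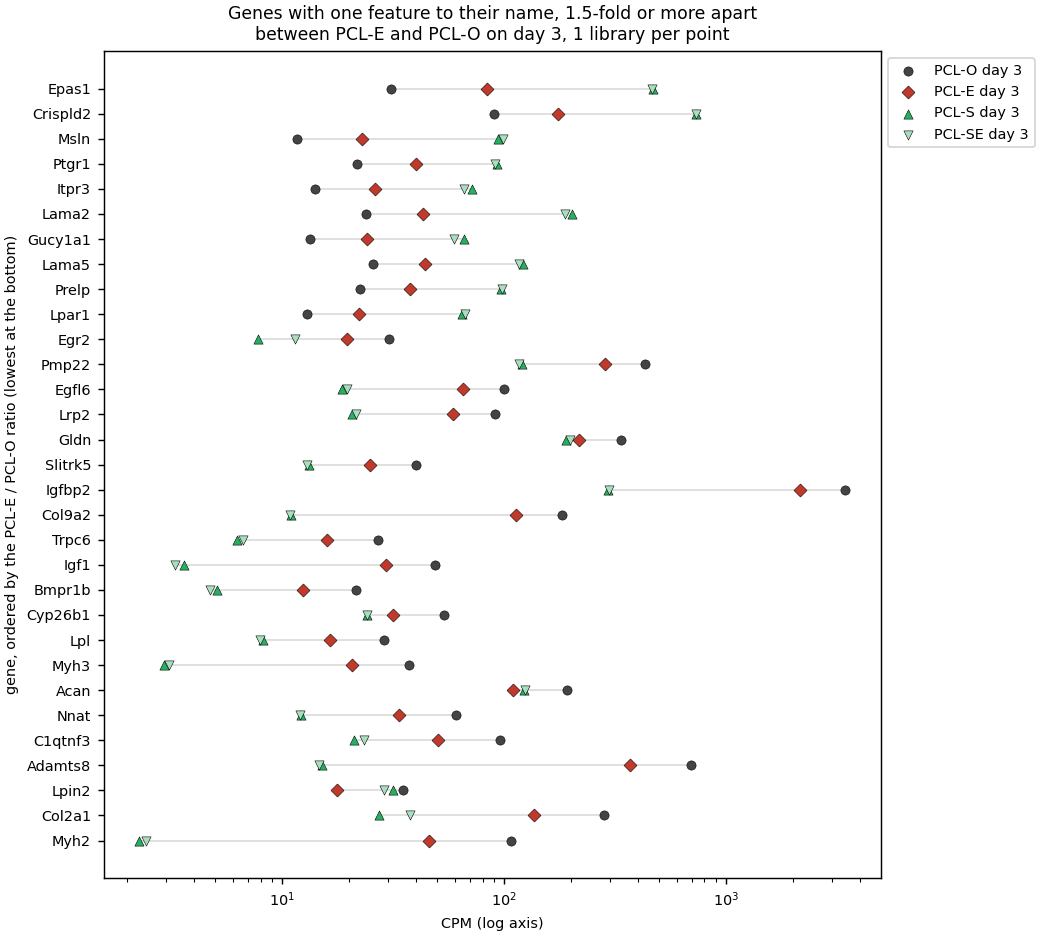
Points give the CPM (log axis) of the 31 genes in the 4 day 3 libraries, 1 library per point, ordered by the ratio of PCL-E to PCL-O. PCL-E lies to the right of PCL-O for the 10 upper genes and to the left for the 21 lower ones, by which they were chosen, and the PCL-S and PCL-SE triangles lie close together; Epas1 stands at 31.1 (PCL-O), 83.9 (PCL-E), 469 (PCL-S) and 466 CPM (PCL-SE).

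Several lists were shifted by small amounts in nearly all members. Of all 6625 genes 51.1% were above 0 and 48.9% below. Sterol synthesis was higher in PCL-E in 15 of 15 members, with a median log2 ratio of 0.17 and a range of 0.05 to 0.31. The sterol sensor gene Insig1 stood at 49.2 CPM in PCL-O and 60.6 in PCL-E (0.27).

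Cell cycle genes leaned the same way. Genes of DNA replication had a median of 0.15, with 16 of 17 members above 0. The thymidine kinase gene Tk1 (29.8 and 37.8 CPM, 0.30) and Uhrf1, which maintains DNA methylation at replication (23.2 and 29.9 CPM, 0.32), led them. The exception, the ligase gene Lig1 (-0.17), shares its name with another feature and was 0.15 in the sum. Genes of mitosis had a median of 0.14, with 18 of 20 above 0. The proliferation marker gene Mki67 stood at 87.0 and 104 CPM (0.22), and the mitotic kinase gene Plk1 was level (28.8 and 28.4 CPM, -0.04). The list of CDK inhibitors and D cyclins had no such lean, with 6 of 10 members below 0 and a median of -0.05. It ran from the antiproliferative gene Btg2 (67.7 and 54.3 CPM, -0.33) to the inhibitor gene Cdkn1b (24.0 and 30.3 CPM, 0.29).

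Of 45 ribosomal protein genes 41 were above 0, at a median of 0.10. Once a trend of the ratio with gene length was removed, the median was 0.06 and 36 of 45 were above 0. Gene length and the ratio had a Spearman correlation of -0.11 over all members. The lowest member, Rplp2 (48.0 and 35.8 CPM, -0.43), carries a name shared by 4 features and was 0.15 in their sum.

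Immediate early genes, which are switched on within minutes of a stimulus, were mostly lower. Of 16 members 13 were below 0, where 48.9% of all members were, and the median was -0.22. Egr2 (30.2 and 19.6 CPM, -0.60) and Fos (24.7 and 16.2 CPM, -0.58), both transcription factor genes, were the lowest, and Klf4 was the highest (61.0 and 72.9 CPM, 0.23).

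Bone genes that reached 20 CPM differed little. Osteoblast transcription factors had 5 members of 12 and a median of -0.01, and the highest was Cbfb, the partner of Runx2 (59.5 and 66.7 CPM, 0.14). Bone matrix and mineralisation genes had 9 members and a median of -0.09. Their lowest were Enpp1, which makes the mineralisation inhibitor pyrophosphate (209 and 147 CPM, -0.53), and the matrix Gla protein gene Mgp, another inhibitor (184 and 152 CPM, -0.30). Lists near 0 included NRF2 targets (16 members, median 0.00), the proteasome (30 members, 0.01), integrins and focal adhesions (23 members, -0.01) and cytosolic chaperones (19 members, -0.01). Each of these 4 medians changed sign under another scaling or with the length trend removed.

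**Figure D4:**
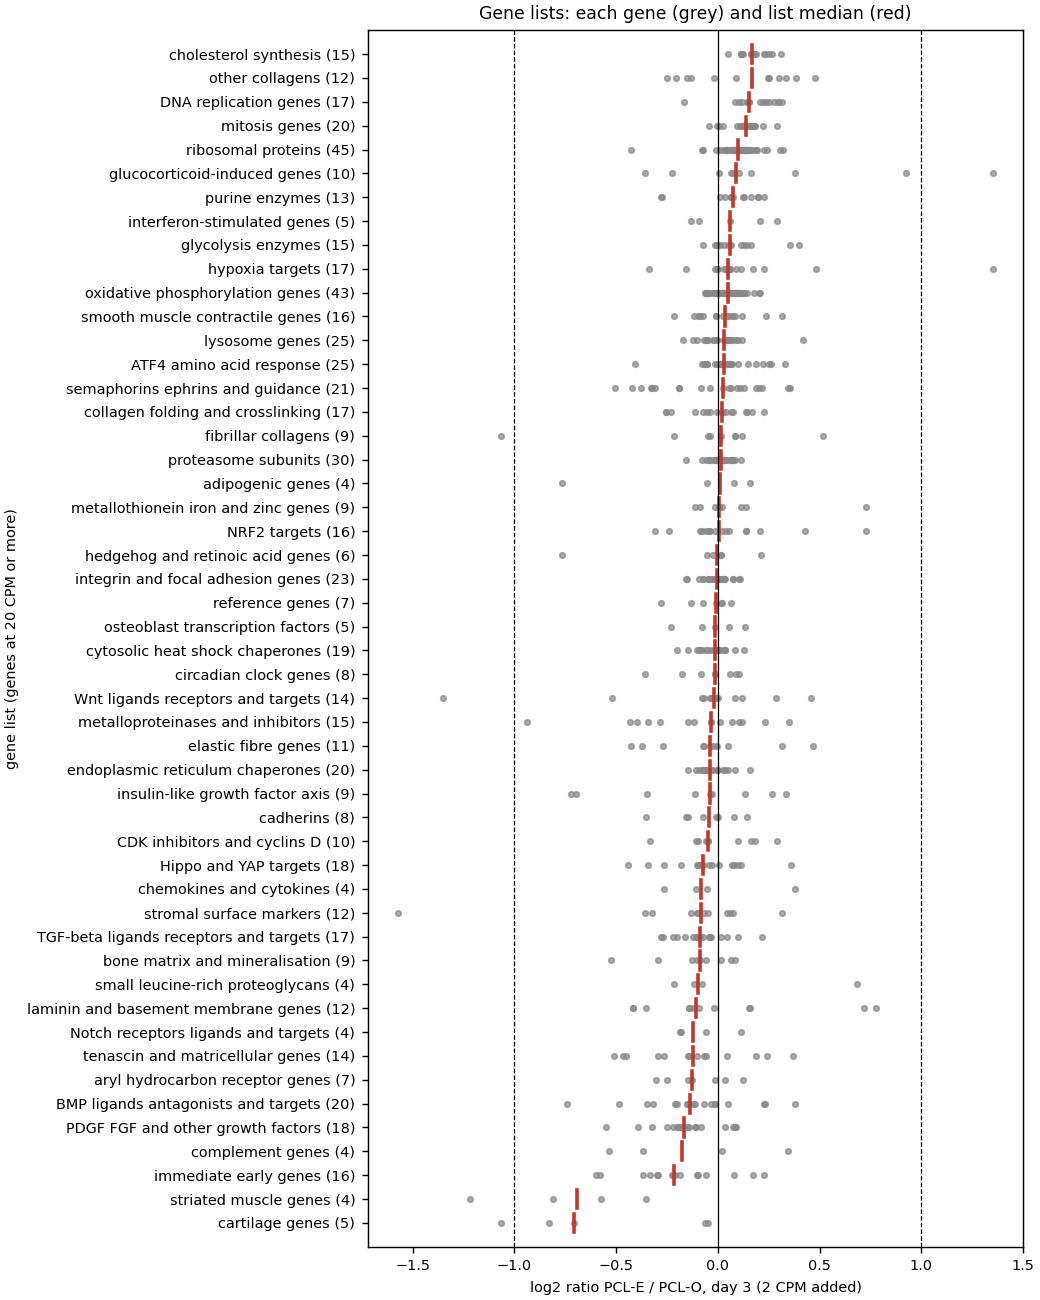
Grey points are the log2 ratios of PCL-E to PCL-O on day 3 of the members of each gene list and red bars the list medians, for lists with at least 4 members (number in parentheses). The medians run from -0.71 for cartilage genes to 0.17 for cholesterol synthesis, and the outlying points near -1.4 and -1.6 in the Wnt and stromal lists are Fzd8 and Cd248, which share their names with other features.

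The same arms were set side by side on day 7, in libraries the day 3 pair did not use. There the spread was wider (SD 0.33 against 0.17), with 94 of the 6625 genes 2-fold or more apart (1.42%). Across genes, which are not independent replicates, the log2 ratios of the 2 days had a Pearson correlation of 0.12. On day 7 the ratio also had a Spearman correlation of -0.49 with gene length.

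Of the 21 single-feature genes that were 1.5-fold lower on day 3, 15 were below 0 on day 7 (71.4%). Of all members 50.3% were below 0 on day 7, and of those below 0 on day 3 57.0% were. By 1.5-fold or more 9 were lower again, where 4.56% of all members were, and 3 were higher. These day 7 values and shares were not corrected for gene length. Myh2 was at 57.7 CPM in PCL-O and 13.5 in PCL-E on day 7 (-2.03), Myh3 at -1.92, Igf1 at -1.51, Col2a1 at 192 and 74.4 CPM (-1.43) and Lrp2, an endocytic receptor gene, at -1.24. Muscle myosins and type II collagen were thus lower in PCL-E on both days. Acan was not: it stood at 88.5 CPM in PCL-O and 242 in PCL-E on day 7 (1.34), and Gldn (0.69) and Cyp26b1 (0.68) were higher too.

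Of the 10 genes that were 1.5-fold higher on day 3, 7 were above 0 on day 7 (70%). Of all members 49.7% were above 0 on day 7, and of those above 0 on day 3 56.0% were. Ptgr1 (13.4 and 75.2 CPM, 2.24) and Lpar1 (8.31 and 24.3 CPM, 1.27) were higher by 1.5-fold or more, where 1.92% of all members were. Epas1 (-1.03), Lama5 (5.16 and 2.30 CPM, -0.80) and Prelp (-0.65) were lower by as much, and Crispld2 (0.08) and Lama2 (0.11) were close to level. Several lists changed sides between the days. Sterol synthesis had 15 of 15 members above 0 on day 3 and 0 of 15 on day 7 (median -0.38). Mitosis genes had 18 of 20 above 0 on day 3 and 4 of 20 on day 7 (median -0.10). BMP genes went from 4 of 20 above 0 to 13 of 20 (median 0.34). DNA replication genes kept a median above 0 (0.08), with 11 of 17 members above it on day 7. Striated muscle genes were below 0 on both days (medians -0.69 and -1.86). The ribosomal protein list had medians above 0 on both (0.10 and 0.34). No length trend was removed from the day 7 ratios, which had a Spearman correlation of -0.49 with gene length over all members. No difference between the days was tested, with 1 library per arm and day.

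**Figure D5:**
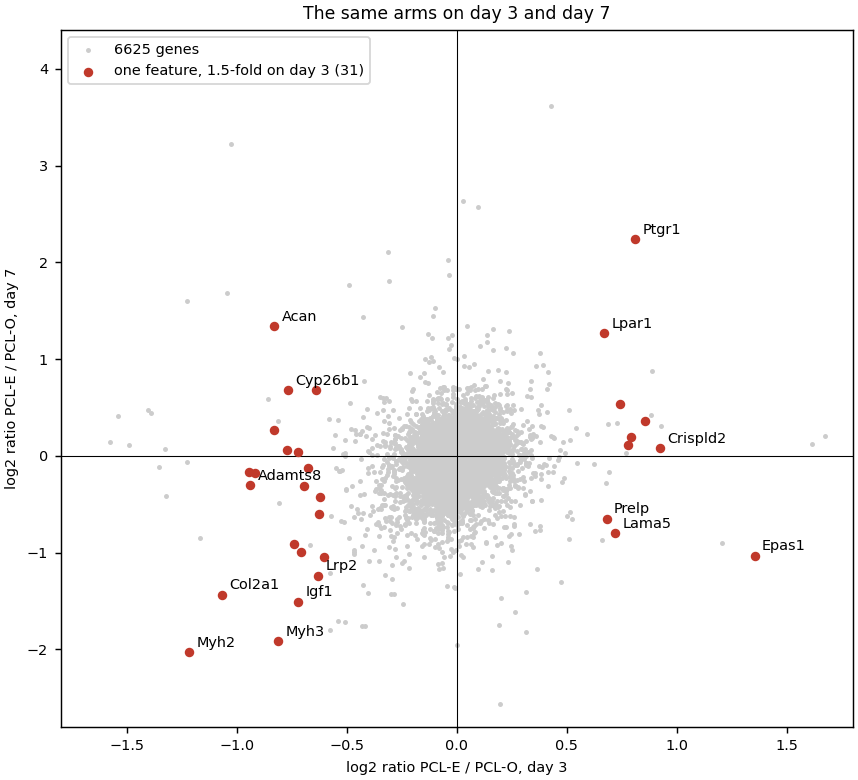
Each grey point is 1 of 6625 genes, with its log2 ratio of PCL-E to PCL-O on day 3 (horizontal) and day 7 (vertical), 2 genes lying outside the axes; red points are the 31 single-feature genes 1.5-fold apart on day 3. Myh2, Myh3, Igf1 and Col2a1 are low on both days, Ptgr1 and Lpar1 high on both, and Epas1 (1.35 and -1.03) and Acan (-0.83 and 1.34) change sides.

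With S7 present, E7 was set against its absence by PCL-SE and PCL-S on day 3, which again share no library with the first pair. These libraries lay closer together (SD 0.12, 9 genes or 0.136% at 2-fold or more), and the Pearson correlation with the first pair was 0.11 across genes. None of the 31 genes was 1.5-fold apart there in either direction, where 0.408% of all members were. Of the 21 low ones 10 were below 0 (47.6%) and of the 10 high ones 3 were above it (30%), where 49.9% and 50.1% of all members were. Epas1 (-0.02) and Acan (0.00) were level. Myh2 (2.27 CPM in PCL-S against 2.44 with E7 added), Myh3 (2.95 and 3.08) and Igf1 (3.61 and 3.29) were so low there that the 2 CPM added to both sides draw their ratios towards 0. Col2a1 was above 0 (27.3 and 37.8 CPM, 0.44). Immediate early genes had the opposite sign to the first pair, with 16 of 16 above 0 and a median of 0.26. Fos stood at 9.27 CPM in PCL-S against 19.5 CPM with E7 added (0.93) and its fellow Egr1 at 127 and 213 CPM (0.73).

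Whether E7 shifted any gene in all arms and days alike was tested in a fit over the 8 libraries with S7, day, their interaction and E7 as terms (3 residual degrees of freedom). By edgeR's quasi-likelihood test 0 of 15942 genes had an adjusted p under 0.05, and 589 (3.69%) had an unadjusted p under 0.05. DESeq2 called 1 gene and the fit to the 4 day 3 libraries 1 other, LOC100360647 lower and LOC687780 higher, both of them Fau features. Col9a2 had an E7 term of -0.81 ± 0.22 (SE), Adamts8 one of -0.50 ± 0.14 and Egfl6 one of -0.51 ± 0.14, each with an adjusted p of 0.895. These genes are named from the 31 selected by the day 3 pair, after their values were seen. Both libraries of that pair are in this fit, so the terms reuse the selecting values and are no separate support. Epas1, whose direction differed between the days, had a term of -0.10 ± 0.37. The fit tests a shift shared by both days and by arms with and without S7, so a difference present in the first pair alone counts as spread.

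In the authors' deposited table the comparison of PCL-O with PCL-E on day 3 lists 12150 rat genes and calls 190 up and 253 down. Among the members the authors' deposited table has 27 up (0.408%) and 43 down (0.649%), and its log2 fold changes had a correlation of 0.984 with the ratios here across genes. It gives 1.40 for Epas1, -1.78 for Cd248 and 6.62 for Dr1, each feature on its own.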

How the data were processed

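Messenger RNA of 8 libraries was analysed, 1 per arm and day. The deposited counts are whole numbers per feature, per the file headers. The deposited FPKM values were made by the authors per kilobase and per library total, per the file headers, and served only to derive gene length. The submitters' processing notes name the build mm10, while 22050 of 26873 features carry rat identifiers and 0 coordinates were used. The sources used here name no aligner or counter. The authors' deposited edgeR fold changes and calls (p 0.05, fold 1.5, per the file headers) were only compared. In the table, 10 lines of annotation text were left out.

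Log2 ratios used TMM factors from all 8 libraries and 2 CPM added; intervals combine exact Poisson limits of each count (MOVER method) and cover counting error only. CPM in the text use library totals alone, without TMM. Features were matched by the Swiss-Prot name in the table, counting features of at least 1 CPM in any library. The E7 term was tested with edgeR 4.0.16 (R 4.3.3; filterByExpr, glmQLFTest, Benjamini-Hochberg), and DESeq2 1.42.0 was an alternative. On counts simulated for this fit (15942 genes, 200 changed), the test found 84% of 2-fold and 92% of 4-fold changes. Of its 196 calls 20 were false, a larger share than the adjusted p limit of 0.05. Each changed gene had the same shift in all E7 libraries and was not drawn from the lowest counts. These shares therefore do not cover a difference present on day 3 alone. Nothing says that the libraries came from separate cultures, so p-values measure only the spread between these libraries. The genes named are the up to 15 highest and lowest past 2-fold and the 2 highest and lowest of each of 53 lists (1055 of 1081 symbols matched, 669 members); others were chosen after their values were seen. Some genes that the rule names are left out here. Members, lists and tests were chosen with earlier results of these data known. Python 3.11.15, pandas 2.3.3, scipy 1.17.1, statsmodels 0.14.6 and matplotlib 3.10.9 were used.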

Additional observations from a re-analysis of the deposited data

Results flagged for a closer look

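For 4 genes the log2 ratio of PCL-E to PCL-O was past 2-fold one way on day 3 and past 2-fold the other way on day 7. Epas1, the HIF-2 alpha gene, was 1.35 on day 3 and -1.03 on day 7. LOC103689961, a Selenow copy, was -1.04 and 1.68. The loci AABR07015066.1 (-1.23 and 1.60) and AABR07000398.1 (-1.03 and 3.22) belong to the ribosomal RNA and unnamed set, and AABR07000398.1 stood at 1.46 CPM in PCL-O on day 7. Each value comes from 1 library per side, and the difference between the days was not tested.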

How the results depend on the processing

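The counts of 6 genes 2-fold higher and 15 lower were the same without TMM, with DESeq2-style size factors, with 0.5 CPM added and with the length trend removed, and were 8 and 21 at a 10 CPM minimum (8649 genes). With no minimum beyond filterByExpr (13750 genes) they were 16 and 28, and at a 1.5-fold limit 26 and 38. Summed by Swiss-Prot name (6384 entries, members without a name kept as they were, chosen after the data were seen) they were 1 and 8. That summing turned the sign of 5 genes past 2-fold: Cd248 to 0.139, Fau and LOC100360647 to 0.0873, Dr1 to -0.0643 and AABR07046778.1 to -0.0112. With 0.5 CPM added, Dr1 was 5.18 and AABR07046778.1 was 2.75. Without TMM the median of all members was 0.03. The E7 term called 0 genes in the main setting, 1 with DESeq2 and 1 in the day 3 libraries only, and 0 with each of the 8 libraries left out in turn. No paired analysis was possible because the labels carry no replicate numbers, apart from the E7 term itself, which sets libraries with and without E7 against each other within each S7 and day. The higher library of each member held at least 691 counts, but Dr1 held 9 in PCL-O, and its ratio depends on the amount added. The spread between cultures is not measured in any pair.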
